A study of Homo sapiens with 9 samples.

Results

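The miR-25/92 family is a group of microRNAs (miRNAs) that share one seed, the bases at positions 2 to 8 that pair with a target. The set analysed here took the 5 family guides, the arm of each hairpin on which the family is named (hsa-miR-92a-3p, hsa-miR-25-3p, hsa-miR-92b-3p, hsa-miR-32-5p and hsa-miR-363-3p), together with 3 of the opposite 5p arms (hsa-miR-92a-1-5p, hsa-miR-92b-5p and hsa-miR-25-5p). The members were listed by name, by a rule that uses no measured value but was written with earlier results of these data known, and made up 8 of the 2652 miRNA names in the data. Reads of the loci of one name were added up, and the 8 names covered 9 of 2883 loci.

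Small RNA was sequenced from ES-2, an established ovarian cancer cell line, by miTRAP, in which a bait RNA with MS2 loops, fixed to a resin, captures miRNAs out of a cell lysate. There were 9 libraries, 3 of the lysate input, 3 of the MS2 control, whose bait lacks a 3'UTR (the MS2 bait), and 3 of the PD-L1 3'UTR (the PD-L1 bait). PD-L1, encoded by CD274, is a surface ligand that restrains T cells, and the comparison asked which miRNAs of these cells were recovered with its 3'UTR. All 3 groups came from untreated wild-type ES-2 cells. By the paper's methods the PD-L1 bait was used in a larger amount than the MS2 bait, and the 2 baits also differed in sequence. Comparisons between the baits cannot tell these differences apart. The paper states in general that experiments were done at least in biological triplicate. It does not say whether the lysates of these replicates came from separate cultures. The p values therefore measure the spread between these samples, which may be technical.

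A miRNA hairpin is cut into a duplex of 2 strands, one from the 5p arm and one from the 3p arm. One strand, the guide, is usually kept by an Argonaute protein and directs it to transcripts that match the seed, while the partner strand is usually degraded. Several members lie in the oncogenic miR-17-92a cluster or its copies, miR-106a-363 and miR-106b-25, and miR-92a is also known for limiting angiogenesis.

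The mature strands are printed 5′ to 3′ from RefSeq (GRCh38.p14) to show what the guides share and how their partners differ, with the seed in capitals. The guides come first:
miR-92a-3p: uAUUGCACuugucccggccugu
miR-25-3p: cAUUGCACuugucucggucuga
miR-92b-3p: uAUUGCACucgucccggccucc
miR-32-5p: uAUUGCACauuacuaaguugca
miR-363-3p: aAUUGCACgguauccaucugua
The partner arms follow, and none shares its seed with another member:
miR-92a-1-5p: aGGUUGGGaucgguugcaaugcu
miR-92b-5p: aGGGACGGgacgcggugcagug
miR-25-5p: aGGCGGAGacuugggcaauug

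Outside the seed the guides diverged to different degrees. Counting positions from 1 at the 5′ end and giving the base of miR-92a-3p first, miR-92b-3p differed by U10C, G21C and U22C and was identical at 19 of 22 bases. miR-25-3p differed by U1C, C14U, C18U and U22A and was identical at 18. miR-32-5p shared 11 bases with miR-92a-3p, and miR-363-3p shared 10. How the authors' counting treated reads that fit several such close relatives is not given in the sources used here, so levels of miR-92a-3p and miR-92b-3p may hold some of each other's reads.

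The 5 guides are encoded at 6 loci. miR-92a-3p has identical copies at chr13:91351361-91351382 (plus strand), in the MIR17HG host transcript with the miR-17-92a cluster, and at chrX:134169544-134169565 (minus strand), in the MIR106AHG host transcript. miR-363-3p lies in the same X-linked transcript at chrX:134169382-134169403. miR-25-3p, at chr7:100093571-100093592 (minus strand), sits in an intron of MCM7, which encodes a subunit of the replicative helicase. miR-32-5p, at chr9:109046272-109046293 (minus strand), sits in an intron of TMEM245, and miR-92b-3p, at chr1:155195237-155195258 (plus strand), falls in an exon of at least 1 THBS3-AS1 transcript. The 5p partners lie on the other arm of the same hairpins, miR-92a-1-5p at chr13:91351324-91351346, miR-92b-5p at chr1:155195196-155195217 and miR-25-5p at chr7:100093610-100093630.

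The 3 partners were richer in guanine than the guides. Guanine made up 39.1% of miR-92a-1-5p, 54.5% of miR-92b-5p and 42.9% of miR-25-5p, against 13.6% to 22.7% of the guides. Guanine plus cytosine (GC) did not separate the arms in the same way. The partners held 52.2%, 72.7% and 57.1% GC, while miR-92a-3p held 54.5% and miR-92b-3p 63.6%, so GC was higher in miR-92b-5p and miR-25-5p than in the guides of their hairpins, and lower in miR-92a-1-5p.

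Library depth ranged from 672824 to 5983577 counts and was lowest after trapping, where 3 counts were worth up to 4.02 CPM, counts scaled to a common library size. CPM here are scaled by TMM, which takes the typical miRNA as unchanged, and all means are given with the SD of n = 3 libraries. Replicates correlated at 0.988 to 0.995 in the input, 0.965 to 0.974 in the MS2 control and 0.948 to 0.977 with the PD-L1 3'UTR bait. Replicate 1 lay furthest from the other 2 in every group. In the input, chi-square per degree of freedom was 177 and 244 for its pairs and 12.5 for replicates 2 and 3. It was 141 and 167 against 39.0 in the MS2 control, and 109 and 183 against 19.5 with the PD-L1 3'UTR. Replicate 1 of the PD-L1 3'UTR also had miRNAs of other tissues raised. The 3 muscle miRNAs listed (miR-1-3p, miR-133a-3p and miR-206) summed to 28.3 to 1834 CPM in that group, 44.8 to 131 in the MS2 control and 1.58 to 4.05 in the input. The 2 red blood cell miRNAs (miR-451a and miR-144-5p) summed to 42.9 to 740.5, 32.1 to 84.0 and 2.10 to 2.48 CPM in the same order. Both sums were highest in PD-L1 3'UTR replicate 1, and within the MS2 control both were highest in its replicate 1. Other lists were higher in all 3 PD-L1 3'UTR libraries, with the 4 white blood cell miRNAs at 464 to 687 CPM against 226 to 303 in the MS2 control and 189 to 265 in the input, and the 2 neural miRNAs at 382 to 646 against 78.9 to 135 and 206 to 250.3. Their part in the results was not tested. miR-302a-3p and miR-367-3p, markers of pluripotent cells, were at 0 in every library, although miR-367-3p carries the family seed. All libraries came from ES-2 cells, and where the miRNAs of other tissues came from was not tested. Without PD-L1 3'UTR replicate 1, the number of family members called was 4 against the MS2 control and 4 against the input, as with it.

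hsa-miR-92a-3p was among the most abundant miRNAs of these cells and the only tested guide that rose with the PD-L1 3'UTR bait over the MS2 control bait. It was the 4th most abundant miRNA in the input, the 7th in the MS2 control and the 6th on the PD-L1 bait. In the input it reached 53601, 59198 and 65587 CPM in replicates 1, 2 and 3. It stood at 23843, 22084 and 20348 CPM on the MS2 bait and 33421, 40643 and 41545 CPM on the PD-L1 bait. On the TMM scale the input libraries were highest and the MS2 libraries lowest, with no overlap between any of the groups. Scaled by library totals, the input (40228 to 48654 CPM) and PD-L1 3'UTR libraries (38143 to 46560 CPM) overlapped, and the MS2 libraries stayed lowest.

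Against the MS2 control, miR-92a-3p rose 1.74-fold (log2 fold change 0.80 ± 0.13 SE, adjusted p = 0.000276, edgeR's quasi-likelihood test with Benjamini-Hochberg adjustment over 408 tested miRNAs). In the same comparison 31.4% of all tested miRNAs were called higher. Against the input it was lower on either bait, with log2 fold changes of -0.63 ± 0.13 for the PD-L1 3'UTR (adjusted p = 0.00138) and -1.43 ± 0.13 for the MS2 control (adjusted p = 5.09e-06). With library totals these were -0.06 (adjusted p = 0.704), no longer called, and -0.80, still called lower.

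The 2 deposited loci of miR-92a-3p held nearly equal counts in every library, with 50.7% to 52.7% on the chromosome 13 row. The opposite arm of the X-linked hairpin, miR-92a-2-5p, had 0 counts in all 9 libraries, which allows up to 0.68 to 4.02 CPM per library. How reads of identical copies were split is not given in the sources used here, so the share of each hairpin cannot be read from these rows.

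hsa-miR-25-3p, from the miR-106b-25 cluster, did not pass the test in any comparison. It stood at 4224, 3179 and 3217 CPM in the input, 3988, 3542 and 3637 CPM on the MS2 bait and 3037, 3429 and 3317 CPM on the PD-L1 bait. On the TMM scale the 3 PD-L1 3'UTR libraries lay below the 3 MS2 libraries without overlap, and both groups overlapped the input. Scaled by library totals, both groups lay above the input without overlap. The log2 fold change against the MS2 control was -0.19 ± 0.14 (95% interval -0.50 to 0.11, adjusted p = 0.253). Against the input it was -0.12 ± 0.14 for the PD-L1 3'UTR (adjusted p = 0.456) and 0.07 ± 0.14 for the MS2 control (adjusted p = 0.642). With library totals these 2 values became 0.45 (adjusted p = 0.0154) and 0.71 (adjusted p = 0.00117), both called higher.

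hsa-miR-92b-3p, the closest relative of miR-92a-3p, was lower with both baits than in the input. Its levels were 2570, 2669 and 2809 CPM in the input, 1116, 802 and 963 CPM on the MS2 bait and 1054, 978 and 1177 CPM on the PD-L1 bait. Every input library lay above every trapped library, while the 2 baits overlapped. Against the input it fell by 1.33 ± 0.15 on the log2 scale with the PD-L1 3'UTR (adjusted p = 2.99e-05) and by 1.48 ± 0.15 with the MS2 control (adjusted p = 1.16e-05), and with library totals these values were -0.76 and -0.85, still called lower. Between the baits the difference was 0.16 ± 0.15 (95% interval -0.17 to 0.48, adjusted p = 0.380).

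hsa-miR-32-5p was the scarcest guide tested. It stood at 148, 143 and 177 CPM in the input, 114, 190 and 169 CPM on the MS2 bait and 172, 127 and 128 CPM on the PD-L1 bait. On the TMM scale the groups overlapped in every comparison and none passed the test, with adjusted p from 0.609 to 0.949 by the same edgeR test. Scaled by library totals, both trapped groups lay above the input without overlap. With library totals the MS2 control value against the input was 0.64 (adjusted p = 0.0205), called higher. Between the baits its log2 fold change was -0.14 ± 0.23 (95% interval -0.66 to 0.37).

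hsa-miR-363-3p was too scarce to be tested. It had 0, 2 and 0 counts in the input, 5, 0 and 4 in the MS2 control and 15, 0 and 1 with the PD-L1 3'UTR, where the highest count fell in replicate 1, the library in which the muscle and red blood cell miRNAs were raised. Their part in this count was not tested. Its opposite arm, miR-363-5p, had 7 counts in that same library and 0 in the other 8.

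**Figure D1:**
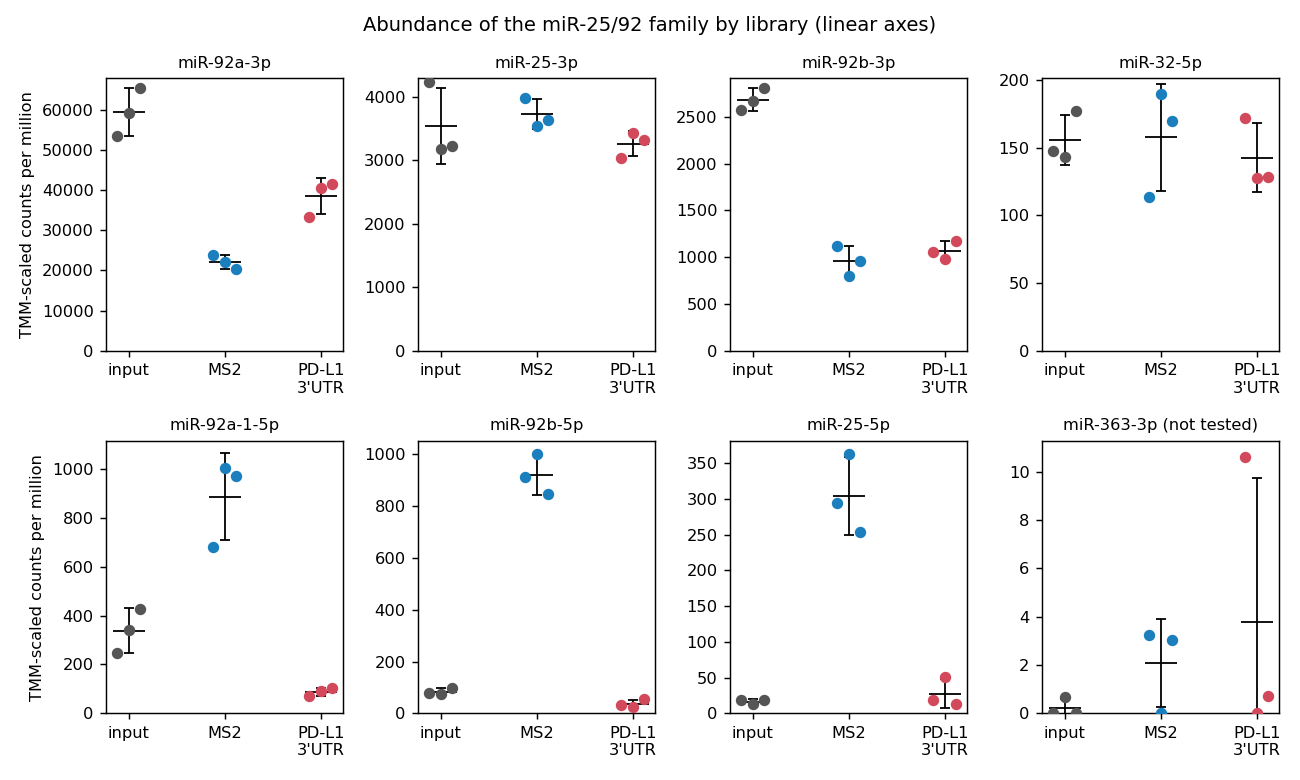
Each panel plots 1 member, with TMM-scaled CPM on a linear axis from 0 for the 3 input, 3 MS2 control and 3 PD-L1 3'UTR libraries (points), and the mean ± SD (bars). miR-92a-3p lies between its input and MS2 levels with the PD-L1 3'UTR bait, while the 3 partner arms in the lower row peak in the MS2 control.

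The 5p partner arms showed a different pattern from the guides. All 3 were higher on the MS2 bait than in the input, and all 3 had lower levels on the PD-L1 bait than on the MS2 bait. Background shares of all tested miRNAs were 32.8% called higher on the MS2 bait than in the input, and 28.7% called lower with the PD-L1 3'UTR than with the MS2 control.

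hsa-miR-92b-5p changed most between the baits. It stood at 79.7, 73.5 and 98.7 CPM in the input, 910, 1002 and 847 CPM on the MS2 bait and 34.0, 24.1 and 53.7 CPM on the PD-L1 bait. On the TMM scale the MS2 libraries were highest and the PD-L1 3'UTR libraries lowest, with no overlap. Scaled by library totals, the input and PD-L1 3'UTR libraries overlapped. It was 10.9-fold higher on the MS2 bait than in the input (log2 fold change 3.45 ± 0.26, adjusted p = 1.59e-06) and fell by 4.60 ± 0.28 on the log2 scale, 24.3-fold, from the MS2 control to the PD-L1 3'UTR (adjusted p = 2.19e-07). Against the input, the PD-L1 3'UTR value was -1.15 ± 0.26 (adjusted p = 0.00259), and this call was lost with library totals (-0.58, adjusted p = 0.0626).

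hsa-miR-25-5p was scarce in the input and rose on the MS2 bait. It was counted at 18.9, 12.5 and 18.2 CPM in the input, 295, 363.2 and 254 CPM on the MS2 bait and 18.4, 51.0 and 13.1 CPM on the PD-L1 bait. The MS2 libraries stood above all others, and the input and PD-L1 3'UTR libraries overlapped on the TMM scale. Scaled by library totals, the lowest PD-L1 3'UTR library (14.6 CPM) lay just above the highest input library (14.2 CPM). The rise over the input was 18.3-fold (log2 fold change 4.19 ± 0.45, adjusted p = 1.64e-05), and the fall from the MS2 control to the PD-L1 3'UTR was 11.6-fold (log2 fold change -3.53 ± 0.45, adjusted p = 5.52e-05). Without PD-L1 3'UTR replicate 2, its highest library there, that value was -4.27 (adjusted p = 3.95e-06). The PD-L1 3'UTR differed from the input by 0.66 ± 0.44 (adjusted p = 0.201), and by -0.08 without replicate 2. With library totals it was 1.22 (adjusted p = 0.0243).

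hsa-miR-92a-1-5p was the most abundant partner in the input. It stood at 247, 342 and 428 CPM in the input, 682, 1005 and 971 CPM on the MS2 bait and 69.4, 91.2 and 102 CPM on the PD-L1 bait. The 3 groups did not overlap, with the MS2 control highest and the PD-L1 3'UTR lowest. It was 2.61-fold higher on the MS2 bait than in the input (log2 fold change 1.39 ± 0.24, adjusted p = 0.000504) and lowest on the PD-L1 bait. Its log2 fold change there was -3.34 ± 0.27 against the MS2 control (adjusted p = 1.50e-06) and -1.95 ± 0.25 against the input (adjusted p = 7.56e-05).

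Of the 8 members, 7 passed the filter on low counts. With the PD-L1 3'UTR against the MS2 control, 1 was called higher and 3 lower, where 60% of all tested miRNAs were called in either direction. On the TMM scale, used for all overlap counts here, the libraries of the 2 groups did not overlap for 5 of the 7, against 65.7% of all tested. With the PD-L1 3'UTR against the input, 0 were called higher (34.1% of all tested) and 4 lower (32.4%), with 66.4% called in either direction. At an unadjusted p under 0.05, 0 were higher too, DESeq2 also called 0 higher, and 4 of the 7 did not overlap, against 74.8% of all tested. In the MS2 control against the input, 3 were called higher (32.8%) and 2 lower (37%), where 69.9% of all tested were called, and 5 of the 7 did not overlap, against 75.5%. With library totals the calls against the input were 2 higher and 2 lower for the PD-L1 3'UTR (192 and 89 of all tested, where TMM gave 139 and 132) and 5 higher and 2 lower for the MS2 control (199 and 104, where TMM gave 134 and 151). The median log2 fold change of the 4 tested guides was 0.01, -0.38 and -0.71 in these comparisons and that of the 3 partners was -3.53, -1.15 and 3.45, against 0.02, 0.04 and 0.02 over all tested miRNAs.

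**Figure D2:**
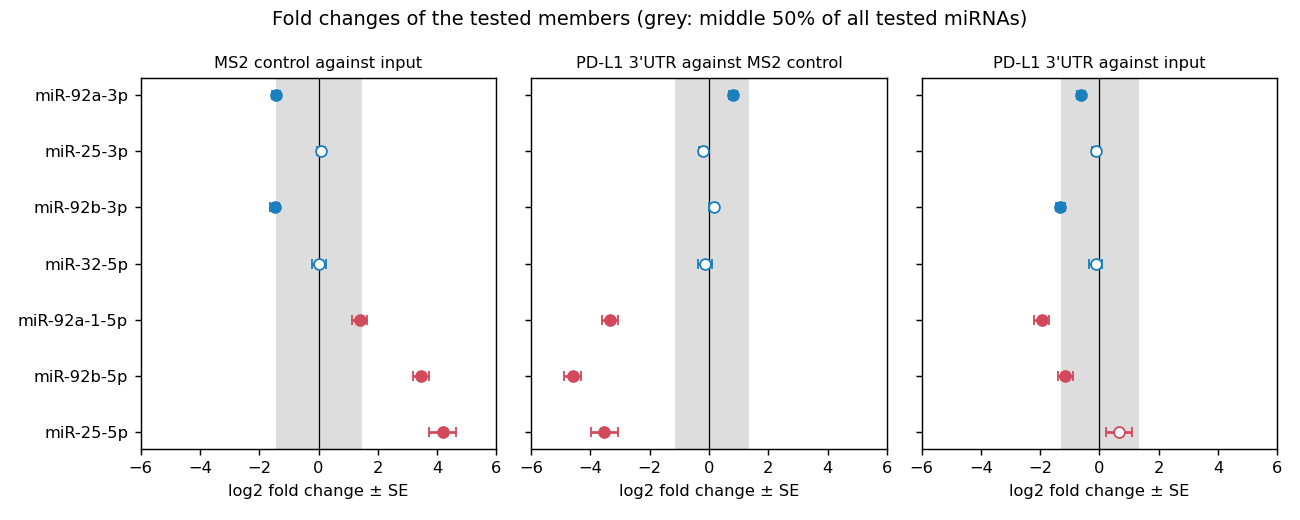
Each panel plots the log2 fold change ± SE of the 7 tested members in one comparison, guides in blue and partner arms in red, filled where called at an adjusted p under 0.05; the grey band spans the middle 50% of all 408 tested miRNAs. In PD-L1 3'UTR against MS2 control the partner arms lie at -3.34, -4.60 and -3.53 and the guides between -0.19 and 0.80.

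Whether the arms of a hairpin changed differently was tested on the reads of the hairpin itself, as the ratio of 3p to 5p counts in each library, where scaling between libraries cancels. Over 119 hairpins with both arms past the filter on low counts, 73.9% changed ratio between the baits. The 3 family hairpins miR-92a-1, miR-92b and miR-25 had higher 3p to 5p ratios with the PD-L1 3'UTR than with the MS2 control, by 4.13 ± 0.29 (adjusted p = 1.93e-12), 4.81 ± 0.33 (adjusted p = 1.19e-12) and 3.46 ± 0.38 (adjusted p = 9.45e-09) on the log2 scale, where 36.1% of all hairpins were called higher and 37.8% lower. Because miR-92a-3p comes from both copies, the miR-92a-1 ratio sets all of its reads against miR-92a-1-5p.

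The partner share of these hairpins rose with the MS2 bait. miR-92b-5p made up 3.03 ± 0.36% of the hairpin's reads in the input, 49.1 ± 5.66% in the MS2 control and 3.30 ± 0.99% with the PD-L1 3'UTR, so that in MS2 replicate 2 the partner outnumbered the guide. For miR-25-5p the shares were 0.467 ± 0.088%, 7.57 ± 1.51% and 0.820 ± 0.568%. For miR-92a-1-5p they were 0.560 ± 0.096%, 3.90 ± 0.97% and 0.226 ± 0.019%. In the MS2 control against the input, the 3p to 5p ratio fell by 4.95 ± 0.32, by 4.11 ± 0.37 and by 2.83 ± 0.28 for miR-92b, miR-25 and miR-92a-1 (adjusted p = 3.34e-13, 2.15e-10 and 1.61e-09), where 33.6% of hairpins were called lower, 37.8% higher and 71.4% in either direction.

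With the PD-L1 3'UTR against the input, only the miR-92a-1 ratio passed the test among these 3 hairpins, higher by 1.30 ± 0.29 (adjusted p = 0.000265), where 30.3% of hairpins were called higher, 34.5% lower and 64.7% in either direction. The miR-92b ratio differed by -0.14 ± 0.33 (adjusted p = 0.719) and the miR-25 ratio by -0.65 ± 0.40 (adjusted p = 0.153). Without PD-L1 3'UTR replicate 3, the miR-25 value was -1.04 (adjusted p = 0.0327), and 2 hairpins were then called.

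The miR-32 hairpin has its guide on the 5p arm. Its 3p partner, cAAUUUAGugugugugauauuu (seed in capitals), is AU-rich, with 27.3% GC and 22.7% guanine, and was not one of the 8 members. It rose from 5.26, 2.70 and 4.28 CPM in the input to 38.1, 72.6 and 38.6 CPM in the MS2 control (log2 fold change 3.59 ± 0.39, adjusted p = 1.73e-05). On the PD-L1 bait it stood at 37.5, 28.2 and 23.9 CPM, above the input (2.84 ± 0.39, adjusted p = 0.000114). It passed the filter on low counts only through the trapped libraries, where it was high. Its calls over the input are therefore no independent support for a rise. Unlike the 3 5p partners, it differed from the MS2 control by -0.74 ± 0.35, which did not pass the test (adjusted p = 0.0922). The 5p guide made up 97.5 ± 0.81% of the hairpin's reads in the input, 76.2 ± 4.69% in the MS2 control and 82.8 ± 1.33% with the PD-L1 3'UTR.

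**Figure D3:**
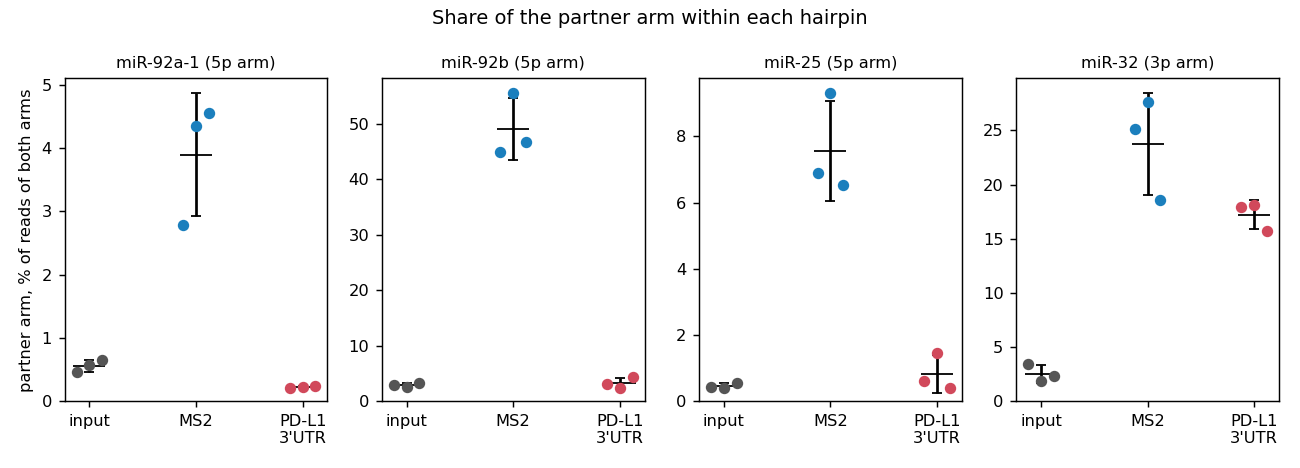
Each panel plots 1 hairpin, with the partner arm as a percentage of the reads of both arms per library (points) and the mean ± SD (bars), on linear axes from 0 that differ between panels. The share is highest in the MS2 control in all 4 hairpins and reaches 49.1% for miR-92b, and with the PD-L1 3'UTR it is near the input for miR-92b and near the MS2 control for miR-32.

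Set by the more abundant arm of each hairpin in the input (54 hairpins with a 3p major arm and 65 with a 5p major arm), all 4 family hairpins lost share of the major arm in the MS2 control against the input, where 46.2% of hairpins lost and 25.2% gained it. Between the baits, 3 of the 4 gained it with the PD-L1 3'UTR, where 39.5% of hairpins gained and 34.5% lost it. Against the input, 1 of the 4 gained and 1 lost it with the PD-L1 3'UTR, where 24.4% gained and 40.3% lost it. miR-32 lost it against the input with either bait. It entered the fit only because its 3p arm passed the filter in the trapped libraries, so its losses are no independent support. Other hairpins may also have entered only through the trapped libraries. The major arm was chosen from the same input libraries, which favours losses against the input, also in the shares over all hairpins. The median change over all 119 was -0.66 in the first comparison and 0.15 in the second.

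**Figure D4:**
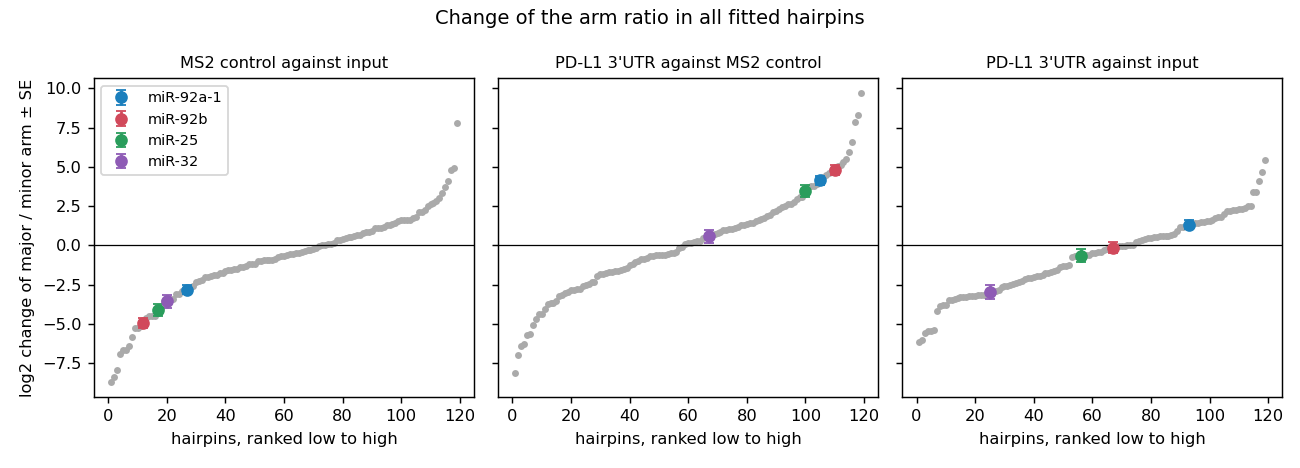
Each panel ranks 119 hairpins (grey points) by the log2 change in the ratio of major to minor arm, defined in the input, with the family hairpins in colour and ± SE bars. miR-92b, miR-25, miR-32 and miR-92a-1 lie between -4.95 and -2.83 in MS2 control against input, and the 3 hairpins other than miR-32 lie between 3.46 and 4.81 in PD-L1 3'UTR against MS2 control.

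The guides were also compared with one another inside each library, which no scaling affects. miR-25-3p amounted to 7.88%, 5.37% and 4.90% of miR-92a-3p in the input, 16.7%, 16.0% and 17.9% in the MS2 control and 9.09%, 8.44% and 7.98% with the PD-L1 3'UTR. The 3 groups did not overlap. On the log2 scale the ratio differed by -0.99 between the PD-L1 3'UTR and the MS2 control, by 0.52 between the PD-L1 3'UTR and the input, and by 1.51 between the MS2 control and the input. The ratio of miR-92b-3p to miR-92a-3p differed by -0.63, -0.70 and -0.07 in the same order, and that of miR-32-5p by -0.93, 0.49 and 1.42. Of these 9 differences, 7 had groups without overlap and an exact permutation p of 0.1, two-sided, the smallest that 3 against 3 libraries allow. The share without overlap over the ratios of all miRNA pairs was not computed. Taken singly on the TMM scale, 65.7%, 74.8% and 75.5% of all tested miRNAs were without overlap in the same comparisons. The exact permutation p was 0.2 for miR-32-5p between the baits and 0.8 for miR-92b-3p between the MS2 control and the input. After Benjamini-Hochberg adjustment over the 9, these permutation p values were 0.129, 0.225 and 0.8.

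Summed over the 5 guides, the family made up 4.99% of unscaled library counts in the input, 3.16% in the MS2 control and 4.83% with the PD-L1 3'UTR. Within that sum miR-92a-3p held 90.2%, 82.0% and 89.5%, and miR-25-3p 5.44%, 13.8% and 7.61%. On the TMM scale the guides summed to 65841 ± 5652 CPM in the input. They summed to 26934 ± 1990 CPM on the MS2 bait and 43014 ± 4632 CPM on the PD-L1 bait. On the same scale the 3 partners summed to 439 ± 100 CPM in the input. They summed to 2110 ± 244 CPM on the MS2 bait and 152 ± 26.6 CPM on the PD-L1 bait.

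Base composition was set beside the fold changes over the 371 tested miRNAs that had a RefSeq sequence, whose median GC was 47.8%. In the MS2 control against the input, the fold change correlated with guanine content (Pearson's r = 0.30, Spearman's rho = 0.30) and less with GC (0.08 and 0.07). In the PD-L1 3'UTR against the MS2 control the values were -0.34 and -0.37 for guanine, and -0.29 and -0.29 for GC. In the PD-L1 3'UTR against the input the order was the opposite, with -0.04 and -0.06 for guanine and -0.22 and -0.24 for GC. These correlations are across miRNAs, which share libraries and are not independent replicates, and are given as a description. Among the 93 miRNAs richest in GC (57.9% to 91.3%), 9.68% were called higher with the PD-L1 3'UTR than in the MS2 control and 40.9% lower. Over all tested miRNAs these shares were 31.4% and 28.7%. The range holds miR-92b-5p and its guide miR-92b-3p, but not miR-25-5p (57.1%) or miR-92a-1-5p (52.2%).

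**Figure D5:**
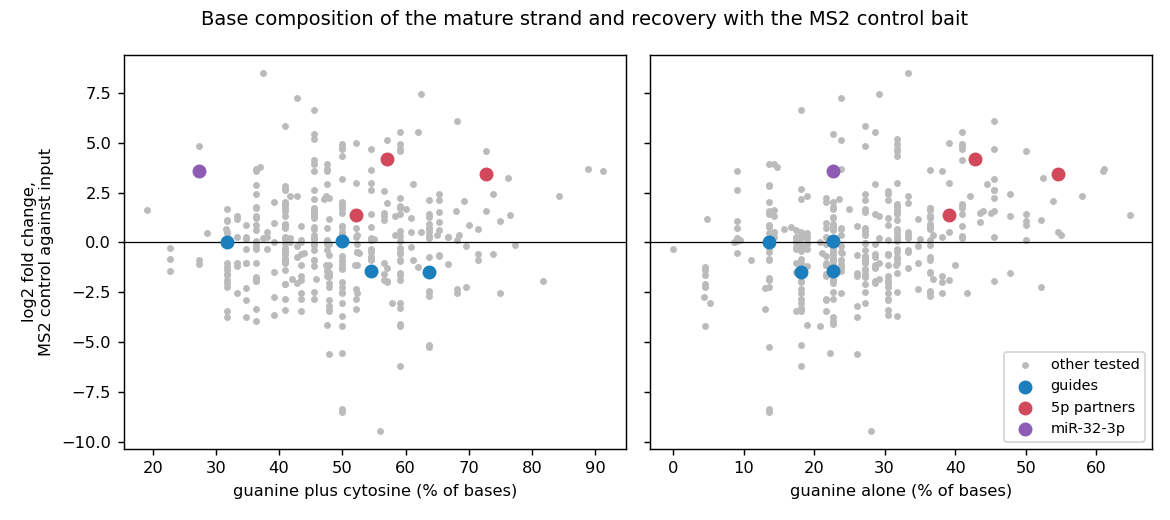
Both panels plot the log2 fold change of MS2 control against input for the 371 tested miRNAs with a sequence, against the percentage of guanine plus cytosine (left) and of guanine alone (right) in the mature strand. The 3 partner arms (red) hold 39.1% to 54.5% guanine and lie to the right of the tested guides (blue, 13.6% to 22.7%), while in GC the arms overlap and miR-32-3p (purple) is at 27.3%.

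The PD-L1 3'UTR was searched for matches to the family seed. The annotated 3'UTR of CD274 (transcript CD274-201, exon 6) spans 2704 bases at chr9:5467863-5470566 on GRCh37, and the sequence of the bait itself was not used here. The 3'UTR holds 1 match to the guides, TGCAATA, which pairs with positions 2 to 7 and carries an A opposite position 1, at chr9:5468885-5468891. With the match in capitals, the transcript's strand there reads:
CD274 3'UTR, chr9:5468865-5468893: aaccatttattaagtgccctTGCAATAtc
The motif GTGCAAT, which pairs with positions 2 to 8, was not found, nor was the 8-base match GTGCAATA. Of the 4555 3'UTRs at least as long, each read on its own strand over its first 2704 bases, 17.4% hold TGCAATA and 18.9% hold GTGCAAT. None of the 6-base seed motifs of the partners, CCAACC for miR-92a-1-5p, CGTCCC for miR-92b-5p and TCCGCC for miR-25-5p, was found, and 36.8%, 12.6% and 18.4% of the same 3'UTRs hold them. A match is a description of letters and not a site of binding.

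The miR-17-92a, miR-106a-363 and miR-106b-25 clusters carry other miRNAs, of which 21 names were listed and 16 passed the filter. With the PD-L1 3'UTR against the MS2 control, 13 of these cluster mates were called higher (31.4% of all tested) and 1 lower (28.7%), with a median log2 fold change of 4.18 against 0.02 over all tested, or 3.13 with miR-18b-5p, at 0 in every MS2 library, set to its lower bound (3 counts per library). Against the input, 10 were called higher (34.1%) and 0 lower (32.4%), with a median of 2.31. At an unadjusted p under 0.05, and by DESeq2, 0 were lower as well. The higher calls of both comparisons include miR-18b-5p, with 15, 6 and 10 counts with the PD-L1 3'UTR and 1, 0 and 2 in the input. It passed the filter through the PD-L1 3'UTR libraries alone, so its calls are no independent support. In the MS2 control against the input 1 was called higher (32.8%) and 10 lower (37%), with a median of -1.72. With library totals the mates were 13 higher and 0 lower for the PD-L1 3'UTR against the input, and 2 higher and 9 lower for the MS2 control against the input. The mates were not alike between the baits. Of those in the miR-106b-25 cluster, where miR-25-3p had a log2 fold change of -0.19, miR-106b-5p had 7.67 and miR-93-5p 5.26, while the opposite arms miR-106b-3p and miR-93-3p had -0.47 and -0.25, the last not called. The 9 tested mates of the miR-17-92a cluster, where miR-92a-3p had 0.80, lay between 0.60 (miR-19a-3p) and 6.71 (miR-17-5p, the highest), with miR-18a-3p at 1.16, miR-17-3p at 1.58 and miR-19b-1-5p, the 1 not called, at 0.70.

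The miRNAs whose pattern over the 9 libraries lay closest to each member were found by root mean square distance of log2 CPM after centring. For miR-92a-3p these were miR-152-3p (distance 0.11) and miR-18a-3p (0.19), which lies in the miR-17-92a cluster. For miR-25-3p they were miR-130b-5p (0.14) and miR-30c-5p (0.17), and for miR-92b-3p miR-378d (0.21) and miR-221-3p (0.22). Those of miR-32-5p were miR-301a-5p (0.16) and miR-532-5p (0.21). By this distance the partners lay further from their nearest neighbours, miR-92a-1-5p from miR-760 by 0.31, miR-92b-5p from miR-342-5p by 0.37 and miR-25-5p from miR-3689b-3p by 0.35. By correlation they did not, with Pearson's r of 0.977, 0.984 and 0.985 to these neighbours. The guides correlated with their nearest neighbours at 0.993 (miR-92a-3p), 0.963 (miR-92b-3p), 0.871 (miR-32-5p) and 0.356 (miR-25-3p). No member had another member among its 2 nearest.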

How the data were processed

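Members and lists were chosen with earlier results of these data known. The deposited table holds raw counts per mature miRNA locus. Per the labels, the authors used cutadapt 1.18, Bowtie2 2.2.6 and featureCounts 1.6.3 and named hg38, and per the methods the annotation was miRBase. How reads with several matches were counted is not given in the sources used here. Groups and replicate numbers came from sample titles.

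Loci of one name were summed, and filterByExpr kept 408 miRNAs, which held 99.68% to 99.93% of counts. edgeR 4.0.16 in R 4.3.3 (glmQLFit, glmQLFTest, two-sided) fitted 3 group means to the 9 libraries with TMM scaling, with Benjamini-Hochberg adjustment at 0.05. The biological coefficient of variation was 31.1%. Arm ratios used the same test on the 3p and 5p counts of each library, with library effects. SE is the log2 fold change divided by the square root of F. Intervals are 95% and floors are 3 counts, and floors cover counting error only, since PCR reads are not independent molecules. Named miRNAs were all members, the opposite arms, cluster mates and the 2 nearest patterns. No replicate pair agreed within sampling noise by a chi-square test.

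On simulated counts for the PD-L1 3'UTR against the MS2 control, with features changed by 2 on the log2 scale, the miRNA test recovered 91.3% of 200 among 408 with 2.52% of calls false, and the arm test 92.5% of 40 among 119 with 3.13%. Alternatives were DESeq2 1.42.0 and its size factors, limma 3.58.1, library totals, other filters, only the groups compared, a replicate block and leaving out each library. Sequences came from RefSeq and 3'UTRs from GENCODE on GRCh37.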

Additional observations from a re-analysis of the deposited data

How the results depend on the processing

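The number of family members called was 4 under every alternative for the PD-L1 3'UTR against the MS2 control, 4 to 5 against the input, and 5 to 7 for the MS2 control against the input. The directions within these counts changed with library totals, which moved the median of all tested miRNAs by 0.57 (PD-L1 3'UTR against input) and 0.63 (MS2 control against input). Called members of the PD-L1 3'UTR against the input then were 2 higher, miR-25-3p (0.45) and miR-25-5p (1.22), and 2 lower, while miR-32-5p (0.45) turned sign and was not called. The number of family hairpins called for arm ratio ranged from 1 to 2 for the PD-L1 3'UTR against the input when single libraries were left out, and was 3 in both other comparisons. Signs that turned were those of values that did not pass the test in the fit as reported. Leaving out single libraries, miR-32-5p ranged from -0.352 to 0.013 for the PD-L1 3'UTR against the MS2 control, the sign turning without MS2 control replicate 2. For the PD-L1 3'UTR against the input, miR-25-3p ranged from -0.21 to 0.028 (turning without input replicate 1), miR-25-5p from -0.078 to 1.00 (turning without PD-L1 3'UTR replicate 2) and the miR-92b arm ratio from -0.311 to 0.11 (turning without PD-L1 3'UTR replicate 3). For the MS2 control against the input, miR-32-5p ranged from -0.14 to 0.205. In that comparison miR-25-3p (-0.20) and miR-32-5p (-0.23) also turned with every miRNA of at least 1 count, and miR-32-5p (-0.035) with only the groups compared. The cause was not tested. DESeq2 gave no adjusted p for 4 of 408 miRNAs in each comparison. Scarce members limit precision, since 3 counts are worth up to 4.02 CPM.

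Replicate numbers were not taken to pair the samples, since same-numbered deviations correlated at 0.13, 0.07 and 0.10 for the 2 baits and at -0.18 to 0.03 against the input. Each sample correlated best with its own number between the baits and not against the input. Replicate 1 lay furthest from the other 2 in every group, and whether the groups share a reason for this was not tested. With the replicate block, 4, 4 and 5 members were called in the 3 comparisons and 3, 1 and 3 hairpins for arm ratio, the same counts as without it. All miRNAs called numbered 243, 263 and 276, against 245, 271 and 285 without it.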
